A study of Manacus vitellinus and Taeniopygia guttata with 24 samples.

Results

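The effect of testosterone on the pectoralis (PEC) of the golden-collared manakin (Manacus vitellinus) was read from 6 RNA-seq libraries of the 24 in the series. The 3 libraries of the testosterone group (+T, titled +TP1 to +TP3) came from males that received a testosterone implant, and the 3 of the control group (-T, titled -TP1 to -TP3) from males that received a blank implant. Both kinds of implant sat under the skin at the neck, and birds were allotted at random, per the labels' protocols. The same 6 manakins also gave a shoulder muscle, the scapulohumeralis caudalis (SH), which draws the wing in, and 12 further libraries came from zebra finches. Of those, the 6 of finch PEC are used below for levels only, and came from 2 groups of 3 birds given flutamide or a blank and afterwards testosterone. The sources used here give no bird ages, implant dose, time under the implant or gonadal state.

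The PEC is the main downstroke muscle of a bird's wing and powers flight. Testosterone is a steroid hormone that enters cells and alters the transcription of target genes. Skeletal muscle is a classical androgen target, and the male manakin's courtship display, which uses rapid wing movements, depends on androgens. The series compares expression with and without testosterone in these muscles.

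Genes were given in the files by zebra finch identifiers of Ensembl release 68, with no gene names. None of the 14426 identifiers in the lists used (0 matches) occurs in the available table of RefSeq genes, which is for Manacus vitellinus ASM171598v3. The genes below therefore carry no name or function. Only a few are given by identifier, and the others are described as groups by their levels, model lengths and behaviour in other libraries. For the same reason the muscle identity of the samples could not be checked against marker genes, and lists of androgen, sarcomere, calcium-handling, metabolic and cell type genes were not tested.

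The 6 PEC libraries held 10576251 to 14065124 reads, of which 8216280 to 11308271 fell in genes, and listed 8925 to 9444 genes each. Values are RPKM, reads per kilobase of gene model and scaled to the reads of the library, and a gene left out of a list was read as 0. The 6 pairs of libraries within a group correlated at r = 0.899 to 0.949 across the genes tested, and the 9 pairs between groups at 0.878 to 0.934 (log2 scale, genes not being independent replicates). Testosterone library 3 stood nearer to the controls: its r was 0.925, 0.926 and 0.934 with the 3 -T libraries, but 0.899 and 0.916 with the +T libraries 1 and 2. Among the SH libraries, used below for comparison, that of +T bird 2 stood apart, with 87.6% of its reads in genes against 73.5% to 80.4% in the other 11 manakin libraries.

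Few PEC transcripts were called between testosterone birds and controls, and with 3 birds per group mainly large differences can pass. Of 8116 genes at 1 RPKM or more in at least 3 of the 6 libraries, 24 were called at an adjusted p below 0.05, which is 0.296% (limma on log2(RPKM + 1), Benjamini-Hochberg adjustment over the 8116 genes). In +T, 11 of them rose (0.136% of genes tested) and 13 fell (0.16%). Another 28 genes had a limma adjusted p from 0.05 to under 0.06, so the count depends on this threshold. The risers had a median log2 difference of 2.91, with a range of 1.74 to 4.13, and the fallers one of -2.60, with a range of -2.003 to -3.88. In all 24 genes the values of the +T birds lay wholly above or wholly below those of the -T birds, which their selection by p on these values all but fixes. Over all genes tested 5.14% lay wholly above and 18.6% wholly below. Without adjustment 1381 genes had a p below 0.05 (17% of those tested), 319 of them higher (3.93%) and 1062 lower (13.1%) in +T.

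The number of calls changed with every library left out. It was 7, 3 and 81 without the +T library 1, 2 or 3, and 3, 2 and 5 without the -T library 1, 2 or 3. A fit on fewer libraries can also detect less. Where the count fell, this was not told apart from reliance on a given library. Without +T library 3 the count rose instead, and the cause of that rise was not tested. The 24 genes kept their direction in every one of 15 alternatives in which they were tested, while each stayed called in only 4 to 13 of them. The kept direction is no evidence of stability. Groups that do not overlap must keep it when any 1 library is left out, and other filters leave the difference unchanged.

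**Figure D1:**
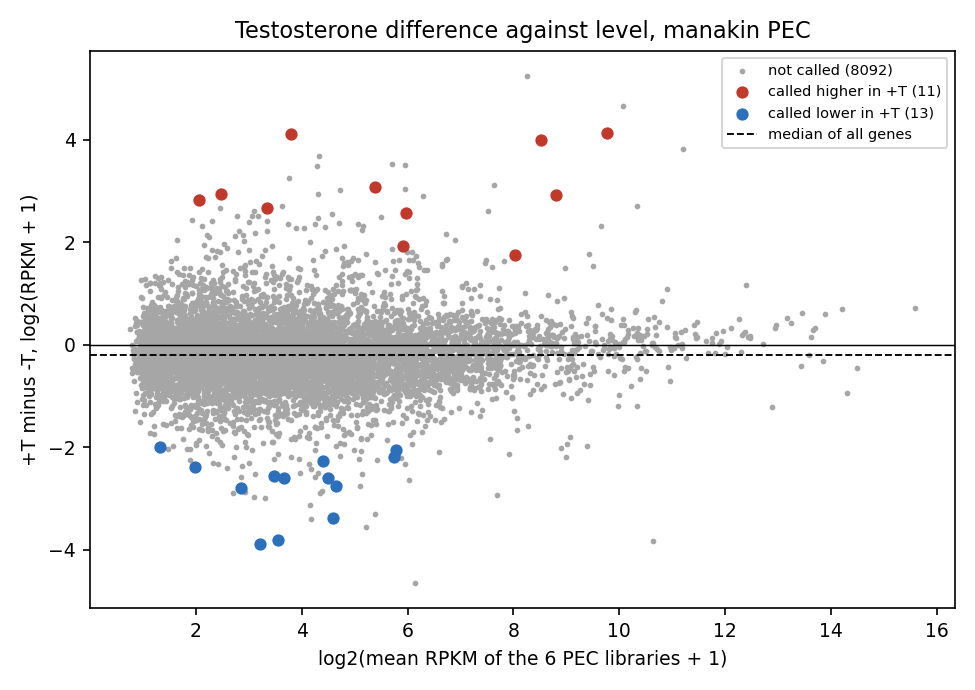
Difference between +T and -T (vertical, log2(RPKM + 1)) against the mean level over the 6 PEC libraries (horizontal, log2 of mean RPKM plus 1), with 1 point for each of the 8116 genes tested. The 11 genes called higher (red) and the 13 called lower (blue) lie outside the dense band of uncalled genes (grey), as do some uncalled genes. The dashed median of all genes lies at -0.20.

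The called genes spanned low to high levels. Risers averaged 6.33 to 1654 RPKM in +T birds (median 94.8), and 7 of the 11 averaged 50 RPKM or more there. Fallers averaged 3.02 to 87.3 RPKM in -T birds (median 20.9), and 2 of the 13 reached an average of 50 RPKM. In the group where they were lower, the risers had a median of 17.1 RPKM and the fallers one of 2.64. The filter bears on a few of them: 2 risers and 4 fallers were at 1 RPKM or more only in the birds of their higher group, so these entered the test through that group alone.

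On the log2(RPKM + 1) scale the largest increase among the called genes was in ENSTGUG00000005022, though ENSTGUG00000017344 exceeded it under several alternatives, such as a pseudocount of 0.1 (6.42 against 4.15). The former was at 2231, 1852 and 879 RPKM in the 3 +T birds and at 92.6, 42.0 and 166.6 RPKM in the 3 -T birds. The lowest +T bird was thus far above the highest -T bird, and +T bird 3 was the lowest of its group. These values rested on 1981 to 5986 reads in +T and 118 to 499 reads in -T, on a short gene model with a recovered length of 213 bases. Group means were 1654 ± 697 and 100.4 ± 62.7 RPKM (SD, n = 3 each). On the log2 scale +T exceeded -T by 4.13 ± 0.56 (SE, limma adjusted p = 0.0399).

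ENSTGUG00000017344 was present in all testosterone birds and close to absent in controls. It was at 30.2, 28.3 and 17.0 RPKM in +T and at 2.26 RPKM in -T bird 1, and it was not listed (read as 0) in -T birds 2 and 3. A count of 0 allows up to 0.971 and 0.912 RPKM in those libraries (3 reads, counting error only). The reads behind it were 89, 76 and 42 in +T and 6 in -T bird 1, on a recovered length of 234 bases. The difference on the log2 scale was 4.10 ± 0.50 (SE, limma adjusted p = 0.032). Both of these risers were called in 7 of 15 alternatives, and their adjusted p went up to 0.147 for ENSTGUG00000005022 and 0.155 for ENSTGUG00000017344.

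Among the called genes ENSTGUG00000006476 showed the largest decrease on the same scale. Control birds had 12.8, 21.6 and 14.6 RPKM, from 435, 853 and 615 reads, and testosterone birds 0.0530, 0.349 and 0.0631 RPKM, from 2, 12 and 2 reads. The +T values were thus near the lower limit of what these libraries can count. The log2 difference was -3.88 ± 0.29 (SE, limma adjusted p = 0.0053).

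ENSTGUG00000006021 followed the same course. It was at 15.9, 25.7 and 20.7 RPKM in -T (234, 440 and 378 reads) and at 0.735, 0.269 and 0.584 RPKM in +T (12, 4 and 8 reads). The log2 difference was -3.82 ± 0.29 (SE, limma adjusted p = 0.0053). Both fallers were under 1 RPKM in every +T bird, so they are 2 of the 4 that passed the filter on levels through -T alone. ENSTGUG00000006476 and ENSTGUG00000006021 were each called in 13 of 15 alternatives and lost the call when all 12 manakin libraries entered the fit (adjusted p = 0.183 and 0.123) and with the replicate number as a block (0.0697 for both).

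**Figure D2:**
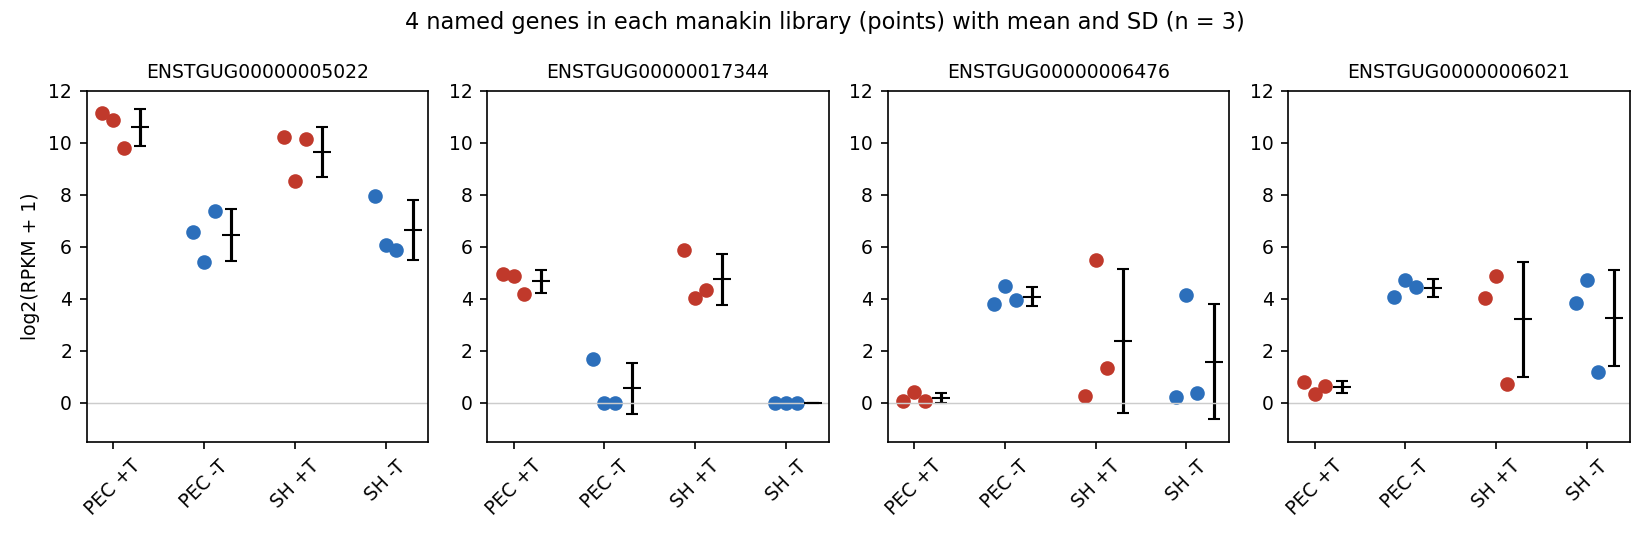
Level of the 4 genes given by identifier, as log2(RPKM + 1), in each library of PEC and SH (points, left to right birds 1 to 3 of a group), with the mean and SD of the 3 birds beside them. In PEC the +T (red) and -T (blue) birds do not overlap in any panel, which the rule for choosing these genes required. In SH the same holds for the first 2 genes, whereas the other 2 genes are high in some birds and low in others of both treatment groups.

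The SH of the same birds gave a second reading of these 4 genes. ENSTGUG00000005022 was at 1200, 365 and 1119 RPKM in +T SH and at 246.6, 65.6 and 57.6 RPKM in -T SH, with +T higher by 2.999 ± 0.70 on the log2 scale (SE, limma adjusted p = 0.548). ENSTGUG00000017344 was at 57.0, 15.5 and 19.2 RPKM in +T SH and listed in none of the 3 -T SH libraries (limma adjusted p = 0.199). For both risers the SH groups also did not overlap, though neither passed the test in that muscle.

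The 2 fallers given by identifier did not repeat this. Their SH differences on the log2 scale were 0.78 ± 1.56 for ENSTGUG00000006476 and -0.041 ± 1.27 for ENSTGUG00000006021 (SE). Of all 13 fallers, 12 had the same direction in SH as in PEC, a count that includes ENSTGUG00000006021 in spite of its small difference. In 6 the SH groups did not overlap in that direction. Among all genes tested in PEC, 58.4% had the same direction in both muscles, and 7.17% lay wholly lower in +T SH. The muscles share their birds, so these counts are not independent of the PEC result. ENSTGUG00000006476 was at 0.205, 44.4 and 1.56 RPKM in +T SH and at 0.174, 16.7 and 0.320 RPKM in -T SH. In both treatment groups bird 2 was high and birds 1 and 3 were low. The high +T value came from the SH library that stood apart. Without that library this gene was lower in +T SH only because the high -T bird 2 was kept. With bird 2 left out of both groups, +T SH was at 0.205 and 1.56 RPKM and -T SH at 0.174 and 0.320 RPKM, so +T was not lower. In -T birds 1 and 3, ENSTGUG00000006476 was at 12.8 and 14.6 RPKM in PEC but at 0.174 and 0.320 RPKM in SH. ENSTGUG00000006021 was at 15.3, 28.6 and 0.643 RPKM in +T SH and at 13.3, 25.6 and 1.27 RPKM in -T SH. Birds 1 and 2 were high and bird 3 low in both groups. The difference between muscles in the treatment effect did not pass for either faller (-4.67 ± 1.75 and -3.78 ± 1.43, SE, limma adjusted p = 0.822 for both). That fit left out the pairing of muscles by bird. With the bird as a block neither faller was called.

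Levels in zebra finch PEC were read over the 6 libraries of both finch groups. ENSTGUG00000005022 was at 27.3 to 54.0 RPKM there, with a median of 37.5, and the finch range overlapped the 42.0 to 166.6 RPKM of the manakin controls. ENSTGUG00000017344 and ENSTGUG00000006021 were listed in none of the 6 finch libraries, and ENSTGUG00000006476 was listed in 3 of them, at no more than 0.0812 RPKM. Reads of both species were assigned to zebra finch genes, so levels in the species are not on a common footing.

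Taking all 24 called genes, 4 were listed in none of the finch PEC libraries and 18 in all 6. Among the 8116 genes tested these shares were 7.47% and 83.9%. Recovered model lengths of the risers ranged from 192 to 4290 bases, with 4 of 11 under 500 bases, and those of the fallers from 561 to 3240 bases, with 0 of 13 under 500. Over all genes tested 10.2% were under 500 bases and the median was 1290. Lengths were solved from the RPKM values and may be too short by a whole factor for some genes. The recovered reads of such a gene are then too few by the same factor.

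**Figure D3:**
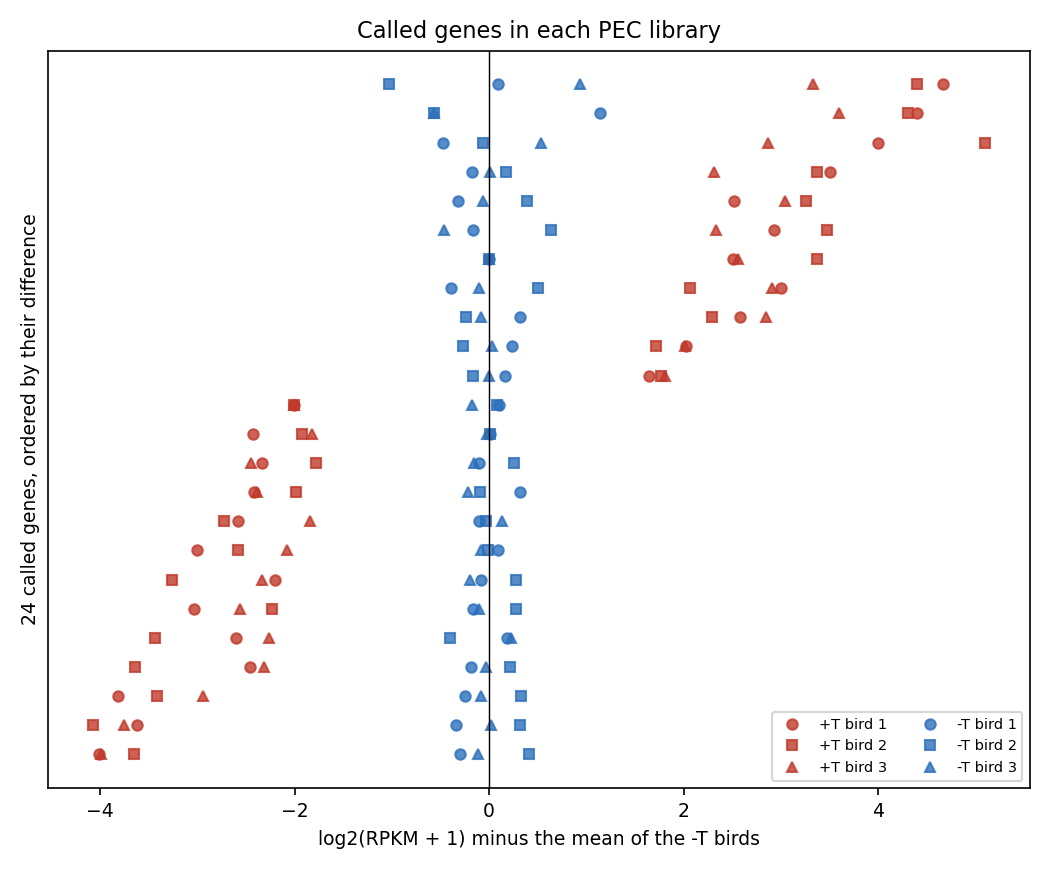
Each called gene (rows, 24 in all, ordered by difference) in each PEC library, as log2(RPKM + 1) minus the mean of the 3 -T birds (horizontal), with a marker shape for each bird. The +T birds (red) stand clear of the -T birds (blue) in every row, which the selection of these genes by p all but fixes. Bird 3 of +T is the nearest of its group to the controls in 5 of the 11 genes that rose and 6 of the 13 that fell.

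How far the called genes moved varied between testosterone birds. Among risers, +T bird 3 had the lowest value of its group in 5 genes, and birds 1 and 2 had it in 3 genes each. Among fallers, bird 3 was the highest of its group in 6 genes, bird 1 in 2 and bird 2 in 4, and 1 gene was not listed in any of the 3 birds. Among these called genes, no bird of the +T group was therefore the weakest throughout. Selection by p disfavours genes in which a single +T bird stays near the controls, and no such count was made over all genes tested.

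Beyond the calls, more genes were lower than higher in testosterone PEC, and this balance depended on the scale. As deposited, 65.5% of the genes tested were lower in +T, the median log2 difference was -0.20, and 599 genes were lower by at least 1 on the log2 scale against 306 higher. With median-ratio scaling, which sets the typical gene equal between libraries, 50.1% were lower, the median was -0.002, and 378 were lower by at least 1 against 433 higher. The share of genes whose groups do not overlap was then 10% higher and 10.3% lower. The calls were 17 higher and 12 lower with that scaling, and 23 of the 24 called as deposited were among them. With quantile scaling they were 10 higher and 5 lower.

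The most abundant transcripts did not share the negative median. In the 213 genes averaging 500 RPKM or more the median log2 difference was 0.04, against -0.16 in 1344 genes from 50 to 500 RPKM, -0.23 in 4132 genes from 5 to 50 RPKM and -0.19 in 2427 genes under 5 RPKM. After median-ratio scaling the medians, from the highest class to the lowest, were 0.27, 0.07, -0.02 and -0.04. Of the 213 highest genes, 12 (5.63%) had an unadjusted limma p below 0.05 and were higher in +T, and 19 (8.92%) were lower. Over all genes tested these shares were 3.93% and 13.1%. Among the 213 genes 1 was called, against 0.296% of all genes tested, and 1 call cannot set the class apart. No test was made between the classes.

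**Figure D4:**
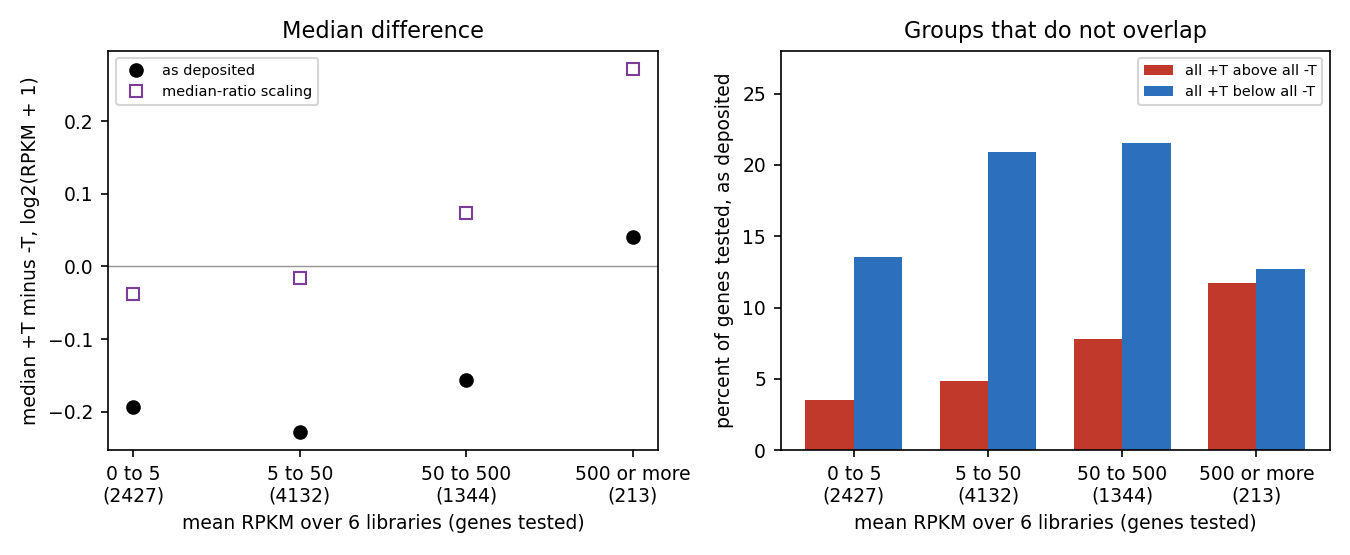
Left, the median difference between +T and -T of the genes in 4 classes of mean level, as deposited (black) and after median-ratio scaling (open squares), both highest in the class of 500 RPKM or more and opposite in sign in that of 50 to 500 RPKM. Right, the percent of genes in each class whose +T birds all lie above (red) or all below (blue) the -T birds, 11.7% and 12.7% in the class of 500 RPKM or more, with no error bars since each bar is a count.

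A few transcripts made up much of each library. The 20 most abundant genes of a library held 35.7%, 38.1% and 36.7% of all RPKM in the +T birds and 34.1%, 33.1% and 34.5% in the -T birds. Every +T bird was above every -T bird (mean 36.9% ± 1.21 against 33.9% ± 0.715, SD, n = 3 each, exact permutation test, two-sided p = 0.1, the smallest that 3 against 3 birds can give). The median RPKM of the genes listed was lower in +T, at 7.65, 7.98 and 7.17 against 9.17, 8.90 and 8.20, again with no overlap (exact permutation p = 0.1, two-sided). Because RPKM is a share of the library, a larger share for a few genes lowers the values of the others, and its part in the negative median was not tested. The number of genes listed did not separate the groups, at 9132 ± 144 in +T and 9256 ± 288 in -T (SD, n = 3 each, exact permutation p = 0.6, two-sided).

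Of the 20 genes with the highest mean over the 6 libraries, 14 were higher and 6 lower in +T by mean log2(RPKM + 1), or 12 and 8 by mean RPKM. Limma called 0 of the 20, and 4 were below an unadjusted p of 0.05. Over all genes tested these shares were 0.296% and 17%, so neither count sets the 20 genes apart. The most abundant transcript was at 52569, 70382 and 62687 RPKM in +T and at 32951, 37178.5 and 42682 RPKM in -T. All +T birds were thus above all -T birds, by 0.72 ± 0.26 on the log2 scale (SE, limma adjusted p = 0.236, not called) and by 0.95 after median-ratio scaling. The third in rank was lower in +T without overlap, at 17337, 11341 and 13383 RPKM in +T against 26100, 25478.5 and 28399 RPKM in -T (log2 difference -0.95 ± 0.27, SE, limma adjusted p = 0.153, not called), and -0.72 after median-ratio scaling.

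Some abundant transcripts were all but missing from single libraries of both treatment groups. The eighth in rank was at 22663, 15250 and 1.81 RPKM in the 3 +T birds and at 19791, 0.363 and 20095 RPKM in the 3 -T birds. The transcript of rank 11 was at 20894, 22713 and 0.300 RPKM in +T and at 11417, 0.240 and 12018 RPKM in -T, so both were low in +T bird 3 and -T bird 2. That of rank 15 was low in +T bird 3, at 1.08 RPKM, and in -T bird 3, at 0.406 RPKM, with 10420 to 13534 RPKM in the other 4 birds. In SH the transcript of rank 8 was at 9717 RPKM in +T bird 2, whose library stood apart, and at no more than 1.21 RPKM in the other 5 libraries. Altogether 40 of the 1201 tested genes reaching 100 RPKM in a PEC library were under 5 RPKM in another, 4 of them within each group. Limma called 0 of the 40, against 0.296% of all genes tested, so this count of 0 is no result about them. ENSTGUG00000006476 and ENSTGUG00000006021 have a split between high and low birds in SH, at lower levels, and its part in their PEC difference was not tested.

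Presence in one group only was rare and mostly faint. Of 10396 genes listed in any PEC library, 19 were listed in all 3 +T birds and no -T bird, and 22 in all 3 -T birds and no +T bird. Of these, 2 and 4 passed the filter on levels, and 1 of each was called, against 0.296% of all genes tested. They were picked for being at 0 in the other group and entered the test through the listing group alone. Their calls are therefore no result about them. The highest value was 48.9 RPKM among the former and 7.34 RPKM among the latter. In only 1 of the 19 and 5 of the 22 did every bird of the listing group have 10 or more reads.

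The spread among birds was larger with testosterone. The median SD of a gene on the log2 scale was 0.423 over the +T birds and 0.319 over the -T birds, and it was larger in +T for 62.5% of the genes tested. Over 2 birds at a time the medians were 0.331 to 0.356 in +T and 0.213 to 0.286 in -T. No test was made of this spread.

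The treatment by muscle test asked whether the effect in PEC differed from that in SH. It called 0 of 8989 genes (0%; limma, 456 below an unadjusted p of 0.05, 5.07%), so no gene is shown to respond in PEC alone. With the bird as a block, 1 gene was called (adjusted p = 0.0466). A fit on the 6 SH libraries also called 0 of 8520 genes (0%), with 633 below an unadjusted p of 0.05 (7.43%).

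The gene that the block brought past the threshold, ENSTGUG00000000287, fell outside the naming rule and was chosen after its values were seen. In PEC it was at 12.1, 4.49 and 1.51 RPKM in +T and at 79.5, 69.0 and 51.2 RPKM in -T. In SH it was at 18.6, 2.78 and 4.57 RPKM in +T and at 0.261, 0.354 and 0.157 RPKM in -T. All +T birds were thus below all -T birds in PEC and above them in SH. The PEC difference was -3.56 ± 0.56 (SE, limma adjusted p = 0.0576, not called), and the difference between muscles was -6.13 ± 0.90 without the block (SE, limma adjusted p = 0.109). A called riser had the same limma adjusted p in that fit, with a difference between muscles of 3.43 ± 0.50 (SE). That riser was chosen for its PEC difference and was too low in SH to be tested there.

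Over the 24 called genes, 22 had the same direction in SH, and 23 without the SH library of +T bird 2. Among all genes tested in PEC these shares were 58.4% and 63.9%. The gene added without that library was ENSTGUG00000006476, whose high +T bird was left out while its high -T bird was kept. PEC and SH share their birds, so these counts are not independent of the PEC result. The 10 risers tested there had a median log2 difference of 2.0001 in SH, and the 13 fallers one of -1.16. The genes were chosen for their PEC difference, so the sizes in the 2 muscles cannot be compared. SH groups did not overlap, in the PEC direction, for 4 of the 11 risers and 6 of the 13 fallers, against 7.42% and 7.17% of all genes tested. Without the SH library of +T bird 2 these were 6 and 8, against 11.7% and 13.6%.

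**Figure D5:**
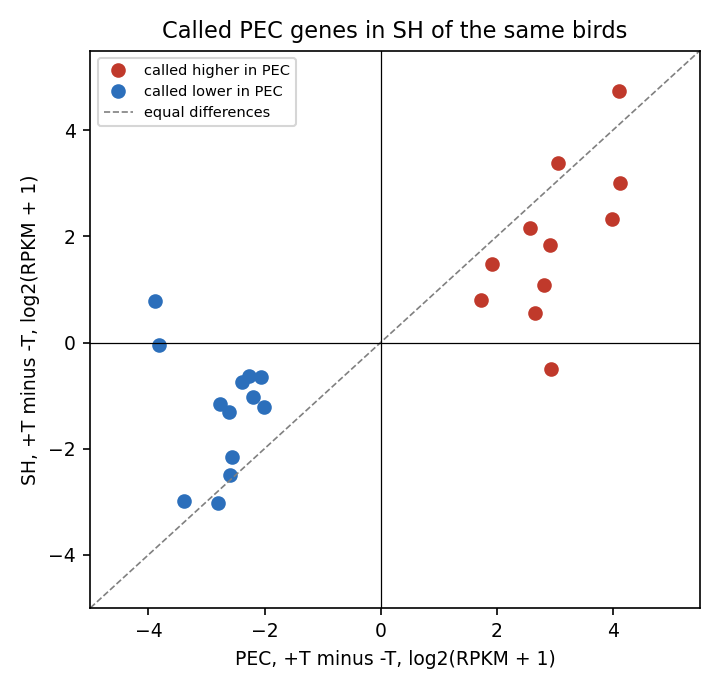
Difference between +T and -T in SH (vertical) against that in PEC (horizontal), both on log2(RPKM + 1), for the 24 genes called in PEC, with equal differences on the dashed line. Most points lie on the same side of 0 in both muscles, and 2 genes have opposite signs, 1 of them too low in SH to be tested there.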

How the data were processed

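The deposited values were RPKM per gene, 1 list for each library, per the file headers, which also name Ensembl release 68. CASAVA, cutadapt and Bowtie 0.12.9 were used, per the submitters' processing notes. The sources used here give neither the genome build nor the way of counting. Strand-specific libraries were made from Trizol-extracted RNA, per the labels' protocols. Assignment of manakin reads to finch genes can shift a gene's level in all manakin libraries.

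Library totals, gene lengths and reads were solved from the steps of the RPKM values of the 12 manakin libraries: 100% of 113221 values gave whole reads (relative tolerance 3e-13), and 64.2% of the reads per gene were even numbers. Where a recovered length is too short, the reads of that gene and the reads in genes are too low. Reads are not independent molecules, so limits from counts cover counting error only. Replicate pairs in PEC differed by 42.8 or more in chi-square per degree of freedom, so none was a repeated library.

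The main test was limma 3.58.1 (R 4.3.3) on log2(RPKM + 1) over the 6 PEC libraries. This scale understates the change of low genes. The treatment by muscle test held 12 libraries. Both muscles of a number carry 1 bird code in the deposited files, and the deviations of the 6 birds' muscles from their group means correlated at -0.147 to 0.24. Scripts also used Python 3.11.15, numpy 2.4.6, pandas 2.3.3, scipy 1.17.1 and matplotlib 3.10.9. The fit was also run on simulated reads with a common spread for all genes and no outlying library. That run checks the code and cannot tell how the fit does on these libraries. Genes given by identifier were the 2 called in each direction with the largest difference, an average of 5 RPKM or more in the higher group and groups that do not overlap. The comparison, the rule and the lists were chosen with earlier results of these data known. Alternatives were other pseudocounts, filters and scalings, a fit with SH, array weights, limma-voom, a replicate block and leaving out each library. One more, SH without the library of +T bird 2, was chosen after seeing the data.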

Additional observations from a re-analysis of the deposited data

Results flagged for a closer look

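The treatment effect on ENSTGUG00000000287 differed between the muscles of the same birds when the bird was a block (difference -6.13 ± 0.51, SE, limma adjusted p = 0.0466). It was lower in all 3 +T birds in PEC and higher in all 3 in SH. Without the block the limma adjusted p was 0.109, and it was also 0.109 with a pseudocount of 0.1. It was 0.0497 without the SH library of +T bird 2 and as high as 0.504 when another single library was left out.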

How the results depend on the processing

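The count of 24 called PEC genes became 8 with a pseudocount of 0.1, 7 with no filter on levels, 68 with a filter of 5 RPKM, 15 with quantile scaling, 40 with array weights and 91 with limma-voom on recovered reads, and ranged from 2 to 81 when 1 library was left out. It was 29 with median-ratio scaling and 25 with all 12 manakin libraries, sharing 23 and 9 genes with the 24. Without the filter 10396 genes were tested. The cause of these changes was not tested. With the replicate number as a block the count was 0 in limma, with 1239 genes below an unadjusted p of 0.05. The numbers mark different birds in +T and -T, so this block does not pair libraries of 1 bird. In PEC the deviations of birds of the same number correlated at -0.0567 to -0.0117. Whether birds of the same number share anything else was not tested. The treatment by muscle count of 0 became 1 with the bird as a replicate block and 1 with a pseudocount of 0.1, and was 0 to 2 with 1 library left out: 2 without the SH +T library 2, 1 without the SH -T library 2 and 0 without any other. The gene called with a pseudocount of 0.1 had a limma adjusted p of 0.000465 and was not ENSTGUG00000000287, whose adjusted p was 0.109 there. Without the SH +T library 2 the smallest limma adjusted p was 0.00228, against 0.0497 for ENSTGUG00000000287. The gene called without the SH -T library 2 had a positive difference, opposite to that of ENSTGUG00000000287. Differences in genes listed and in the share of the 20 most abundant genes kept their sign when any 1 PEC library was left out. For the share this is no evidence of stability, since groups that do not overlap must keep it. The difference in genes listed ran from -30.3 without the -T library 3 to -289.8 without the -T library 1. At the median gene length 1 read is worth 0.0576 to 0.0766 RPKM in the PEC libraries, which limits what can be said of genes near 0.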
